A study of Rattus norvegicus with 138 samples.

Results

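The 9 genes described here are Mbp, Mog, Mag, Mobp, Cnp, Sox10, Sox8, Ugt8 and Cldn11, which are expressed in oligodendrocytes and belong to the myelin sheath, its lipid synthesis or the transcription factors that drive both. They were listed by symbol, with earlier results of these data known, and they are 9 of the 32883 genes in each of the 3 expected-count tables. All 9 passed the filter on low values in every region. Total RNA was sequenced from punches of frozen brainstem sections that held the nucleus of the solitary tract (NTS), the caudal ventrolateral medulla (CVLM) or the rostral ventrolateral medulla (RVLM). These are brainstem nuclei of autonomic and blood pressure control. The animals were female spontaneously hypertensive rats (SHR, substrain SHR/NHsd) and normotensive Wistar-Kyoto rats (WKY, substrain WKY/NHsd), an inbred control strain of related origin. No rat received a treatment. The 46 rats each gave 1 library per region. The group sizes were 5 WKY rats and 5 SHRs at 8 wk of age, 4 WKY rats and 5 SHRs at 10 wk, and 3 WKY rats and 6 SHRs at each of 12, 16 and 24 wk. Each library came from a different rat within its group, so the spread is that between rats of an inbred strain. A punch holds all cell types of its place, so a lower level of a gene can come from fewer cells of a type or from less RNA per cell, and the data cannot tell these apart.

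Myelin is the stacked membrane that oligodendrocytes wrap around axons in the central nervous system, and it speeds conduction of the action potential. Its compaction depends on basic protein at the cytoplasmic membrane faces, and it is rich in galactolipids and cholesterol. Mbp encodes myelin basic protein, and Mobp encodes a small basic protein of the same compact sheath. Cnp encodes the enzyme 2',3'-cyclic nucleotide phosphodiesterase, which keeps cytoplasmic channels open in noncompact myelin. Mog lies on the outer face of the sheath, and Mag lies on the inner face next to the axon. Ugt8 makes galactosylceramide, the main glycolipid of myelin. Cldn11 forms the tight junctions between myelin layers. Sox10 and Sox8 are transcription factors of the oligodendrocyte lineage, and Sox10 is needed for the expression of many myelin genes. Mbp, Mag, Cnp, Ugt8, Sox10 and Sox8 are also used by other glia, among them the Schwann cells of peripheral nerve.

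Of the members with a called strain or age difference, the promoters of Mobp, Cnp, Ugt8 and Cldn11 are shown for reference, as 250 bases before the annotated start in RefSeq's rat assembly GRCr8, written 5' to 3' on the gene's own strand. They lie at chr8:128746982-128747231 on the + strand (Mobp), chr10:86011254-86011503 on the + strand (Cnp), chr2:217007168-217007417 on the - strand (Ugt8) and chr2:114149540-114149789 on the - strand (Cldn11). The expression data were mapped to an earlier build, so these places are those of the promoter table alone. Capitals mark every match, on either strand, to the SOX core letters ACAAAG or ACAATG, the MYRF letters CTGGCAC or CTGGTAC, the GC box GGGCGG or the TATA letters TATAAA. No match overlapped another.
Mobp: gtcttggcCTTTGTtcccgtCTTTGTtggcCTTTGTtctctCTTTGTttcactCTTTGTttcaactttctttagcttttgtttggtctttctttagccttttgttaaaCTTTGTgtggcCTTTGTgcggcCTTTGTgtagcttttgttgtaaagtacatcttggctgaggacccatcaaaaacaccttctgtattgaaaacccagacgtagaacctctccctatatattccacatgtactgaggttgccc
Cnp: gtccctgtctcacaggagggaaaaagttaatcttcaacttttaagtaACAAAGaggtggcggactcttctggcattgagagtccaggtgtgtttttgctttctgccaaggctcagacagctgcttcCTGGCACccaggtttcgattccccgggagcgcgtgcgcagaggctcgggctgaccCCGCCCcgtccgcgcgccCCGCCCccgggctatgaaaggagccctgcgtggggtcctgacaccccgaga
Ugt8: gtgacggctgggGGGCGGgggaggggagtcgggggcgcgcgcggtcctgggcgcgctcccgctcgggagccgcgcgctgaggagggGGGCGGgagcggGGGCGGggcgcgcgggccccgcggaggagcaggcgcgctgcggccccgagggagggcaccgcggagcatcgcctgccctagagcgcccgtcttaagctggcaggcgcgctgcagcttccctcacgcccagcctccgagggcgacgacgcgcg
Cldn11: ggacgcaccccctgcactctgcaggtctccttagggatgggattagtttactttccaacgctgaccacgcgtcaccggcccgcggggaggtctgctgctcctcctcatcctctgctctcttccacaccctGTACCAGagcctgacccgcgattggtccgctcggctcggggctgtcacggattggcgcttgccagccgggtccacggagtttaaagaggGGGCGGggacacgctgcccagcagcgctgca
The Mobp promoter held 8 matches to ACAAAG, all on the opposite strand, where they read CTTTGT. The Cnp promoter held 1 match to ACAAAG, 1 to CTGGCAC and 2 to GGGCGG, that of Ugt8 held 3 to GGGCGG, and that of Cldn11 held 1 to CTGGTAC and 1 to GGGCGG. Of 33469 rat promoters of this length, 16.3% held ACAAAG, 11.1% ACAATG, 3.78% CTGGCAC, 1.78% CTGGTAC, 30.5% GGGCGG and 12.9% TATAAA, so these letters are frequent by themselves. Of the 5 member promoters searched, 3 held ACAAAG, 2 CTGGCAC, 1 CTGGTAC and 3 GGGCGG, while ACAATG and TATAAA were in 0. A match is a description of letters and not of a bound site.

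Levels are given as CPM after TMM scaling, which divides a gene's count by the scaled size of its library, and a strain effect is the log2 fold change of SHR over WKY with its standard error from edgeR's quasi-likelihood fit, with Benjamini-Hochberg adjusted p-values over all genes tested in a region. Genes with an adjusted p below 0.05 are described as called. The libraries held 5904570 to 17889406 counts with a median of 10143018, and the smallest count of any member in any library was 134 (Sox10). Mbp alone took 1.20 to 4.37% of a library's counts. Several libraries stood apart. In the NTS, the summed level of 5 choroid plexus markers was 113 to 4581 CPM in 5 WKY libraries (8 wk replicates 2 and 5, 10 wk replicate 4, 12 wk replicates 2 and 3) and at most 10.2 CPM in any SHR library. In the RVLM, WKY 8 wk replicate 3 had the highest summed level of 8 astrocyte markers, 6574 CPM against 4532 to 6501 CPM in the other 45 libraries, together with values of Cldn11 and Sox8 far from its group. In the CVLM, replicate 5 of both strains at 8 wk is titled 8 wk but has 10 wk in its age field, and both were used as 8 wk. Column names end in 1 or 2, a number whose meaning the sources do not give. Number 2 covers all 10 wk libraries, 3 of 5 WKY libraries at 8 wk and 2 SHR libraries, so the 10 wk group and this number cannot be told apart. The number went with depth: in the NTS number 2 libraries held 10732770 to 17755964 counts and number 1 libraries 6078832 to 11107689. Pnmt, the enzyme of adrenaline neurons, had median levels of 3.95, 40.7 and 18.8 CPM in NTS, CVLM and RVLM. Within the RVLM it ranged from 0.78 to 66.1 CPM. The catecholamine enzyme genes Th and Dbh ordered the regions otherwise and were lowest in the RVLM. Their medians in NTS, CVLM and RVLM were 147, 133 and 49.1 CPM for Th and 75.0, 81.8 and 9.20 CPM for Dbh.

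The regions were compared within rats, in a joint fit of all libraries with the rat as a block. All 9 genes were lower in the NTS than in the CVLM, where 65.9% of the 14043 genes tested were called, and all 9 were lower in the NTS than in the RVLM, where 72.7% were called. The median log2 difference of the members was -0.74 and -0.55, beside 0.01 and -0.01 for all genes. On the TMM scale of this joint fit Mbp ranged from 10674 to 27422 with a median of 14854 CPM in the NTS. The CVLM values were 24079 to 44149.8 with a median of 30870.5 CPM, and the RVLM values 19176 to 38563 with a median of 26489 CPM. Mbp was lower in the NTS than in the CVLM of the same rat in 46 of 46 rats, with a log2 difference of -0.98 ± 0.04 (adjusted p = 4.9e-33), the largest of the 9. It was -0.78 ± 0.04 (adjusted p = 1.6e-27) against the RVLM. The compact-sheath gene Mobp had the next largest difference from the CVLM, -0.84 ± 0.04 (adjusted p = 1.5e-31). Ugt8, the galactolipid enzyme, followed with -0.82 ± 0.05 (adjusted p = 2.6e-27). The smallest difference was that of the transcription factor Sox8, -0.23 ± 0.05 (adjusted p = 7.0e-06) against the CVLM and -0.32 ± 0.05 (adjusted p = 3.7e-09) against the RVLM, and Sox8 was higher in the NTS in 9 of 46 rats for the first comparison. Sox10 lay between, with -0.56 ± 0.07 (adjusted p = 8.4e-12) and -0.53 ± 0.07 (adjusted p = 5.8e-11). The other genes (Mog, Mag, Cnp and Cldn11) differed from the CVLM by -0.58 to -0.80 and from the RVLM by -0.53 to -0.76. Both comparisons with the NTS were called for all 9 genes within WKY and within SHR. TMM scaling moved every NTS to CVLM difference by -0.14 and every NTS to RVLM difference by -0.18 relative to library totals, and on totals the Sox8 difference from the CVLM was -0.09 (adjusted p = 0.094), no longer called.

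The CVLM and the RVLM were closer to each other. Of the 9 genes 5 were higher in the CVLM, where 54% of all genes were called: Ugt8 with 0.37 ± 0.05 (adjusted p = 5.0e-11), Mbp with 0.20 ± 0.04 (adjusted p = 6.8e-05), Mog with 0.18 ± 0.04 (adjusted p = 0.00019), Cnp with 0.14 ± 0.04 (adjusted p = 0.00097) and Mobp with 0.13 ± 0.04 (adjusted p = 0.0035). The Mobp call was lost with the library number as a term, at 0.13 (adjusted p = 0.082). Mag, Sox10, Sox8 and Cldn11 did not pass the test, with log2 differences of 0.04, 0.04, -0.08 and 0.05. Sox8 was lower in the CVLM with the library number as a term, -0.19 (adjusted p = 0.021), and without the number 2 libraries outside 10 wk, -0.10 (adjusted p = 0.032). So the levels ran NTS, RVLM, CVLM from low to high for Mbp, Mog, Mobp, Cnp and Ugt8, and the upper positions of the other 4 were not separated. Other genes of the sheath lay the same way: of 20 further genes of myelin sheath proteins, 20 were lower in the NTS than in the CVLM and 20 lower than in the RVLM, with median log2 differences of -0.53 and -0.52. Of 18 genes of myelin lipid synthesis and metabolism, 16 were lower and 1 higher in the NTS than in the CVLM. Against the RVLM 14 were lower and 3 higher. Of 11 further oligodendrocyte transcription factors, 8 were lower and 3 higher in the NTS than in the CVLM. Of the same factors, 7 were lower and 1 higher than in the RVLM. Of 10 precursor genes, 2 were lower and 5 higher in the NTS than in the CVLM, and 3 were lower and 2 higher than in the RVLM. Markers of other cell types moved with region. In the NTS 8 of 8 microglial and 6 of 6 ependymal markers were higher than in either other region, and 6 of 6 endothelial markers lower. Of 10 neuronal markers, 7 were lower and 0 higher in the NTS than in the CVLM. Against the RVLM 7 were lower and 2 higher. Of 8 astrocyte markers, 4 were higher and 2 lower in the NTS than in the CVLM, and 3 higher and 4 lower than in the RVLM. The summed level of 5 Schwann cell markers in SHR libraries was 321 to 927 CPM in the RVLM. It was 128 to 197 CPM in the NTS and 114 to 159 CPM in the CVLM. In WKY libraries it was 329 to 785, 125 to 247 and 107 to 155 CPM. By gene, 3 of these 5 were higher and 2 lower in the NTS than in the RVLM. The part of these cell types in the region differences was not tested.

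**Figure D1:**
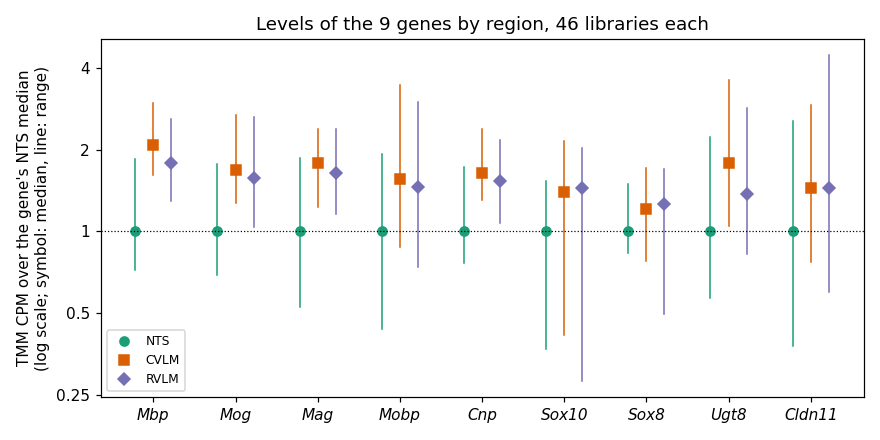
Level of each of the 9 genes in NTS, CVLM and RVLM (46 libraries each), as TMM CPM divided by the gene's own NTS median on a log axis, so heights compare regions within a gene and not genes with each other. Symbols are medians and lines run from the lowest to the highest library; the NTS symbol is the lowest of the 3 for all 9 genes.

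The strains were compared at each age within a region. Over the 5 ages, 6 of 45 member-by-age tests were called in the NTS, 11 of 45 in the CVLM and 5 of 45 in the RVLM. In the NTS, the calls numbered 1 of 9 members at 8 wk, 2 at 10 wk and 1 at each later age, beside 5.79%, 4.44%, 3.1%, 1.73% and 2.46% of the 13793 genes tested. In the CVLM, 3, 2, 2, 2 and 2 of 9 were called, beside 7.64%, 3.18%, 2.62%, 2.27% and 7.13% of 13408 genes. In the RVLM, 1 of 9 was called at each age, in every case Mobp, beside 9.78%, 2.3%, 1.7%, 1.65% and 2.24% of 13411 genes. For the mean strain effect over the 5 ages, 2, 5 and 3 of 9 members were called in NTS, CVLM and RVLM, beside 11.2%, 12.3% and 10.8% of all genes. The 9 genes did not move as a block. Mobp was lower in SHR in all 3 regions, and Cldn11 was higher in the NTS and the CVLM. Cnp and Mog were slightly lower in the CVLM and the RVLM, and Mbp was lower in the CVLM alone, near the threshold. Mag, Sox10, Sox8 and Ugt8 were not called for the mean strain effect in any region. The members' median mean strain effect was 0.11, -0.13 and -0.06 on the log2 scale in NTS, CVLM and RVLM, beside 0.01, -0.003 and 0.01 for all genes.

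**Figure D2:**
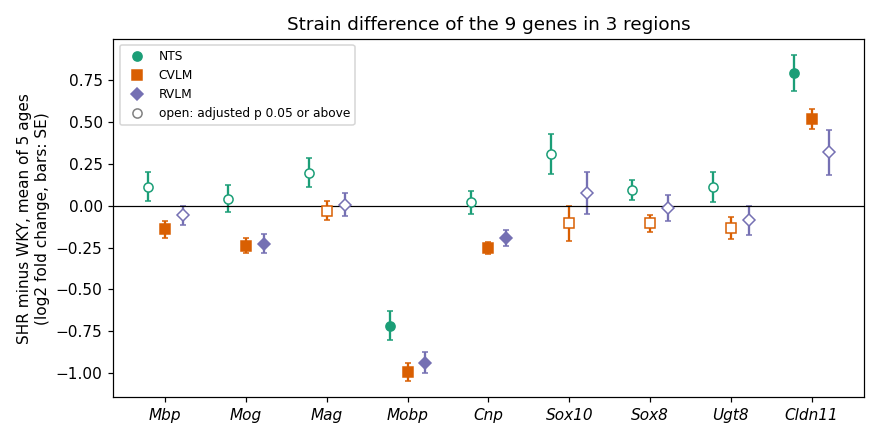
Mean strain effect over the 5 ages for each of the 9 genes in NTS, CVLM and RVLM, as the log2 fold change of SHR over WKY (y axis) with bars of 1 SE and filled symbols for an adjusted p under 0.05. Mobp lies near -1 in the CVLM and the RVLM and at -0.72 in the NTS, Cldn11 lies above 0, and the other 7 genes lie within 0.31 of 0.

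Mobp showed the largest mean strain effect in the CVLM and the RVLM, and the next largest after Cldn11 in the NTS. In the CVLM the 18 WKY libraries ranged from 526 to 947 with a median of 657 CPM, and the 28 SHR libraries from 240.1 to 489.9 with a median of 324 CPM. Every SHR library lay below every WKY library, and the mean strain effect was -0.99 ± 0.05 (adjusted p = 5.8e-19), a fold of 0.502. In the RVLM WKY ranged from 449 to 802 with a median of 595 CPM and SHR from 192 to 472 with a median of 304 CPM, with 27 of 28 SHR libraries below every WKY library and a mean effect of -0.94 ± 0.06 (adjusted p = 1.1e-15). In the NTS WKY ranged from 299 to 579.8 with a median of 374 CPM and SHR from 125 to 454 with a median of 213 CPM. There 24 of 28 SHR libraries lay below every WKY library, and the mean effect was -0.72 ± 0.08 (adjusted p = 1.2e-08). The difference between the regions' strain effects was not called for Mobp: NTS minus CVLM was 0.25 ± 0.08 (adjusted p = 0.20) and NTS minus RVLM 0.20 ± 0.08 (adjusted p = 0.22).

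By age the same order held throughout in the CVLM. At 8 wk the WKY libraries of the CVLM had Mobp levels of 638, 701, 805, 889 and 947 CPM, and the SHR libraries 414, 419, 436, 439 and 489.9 CPM, a log2 fold change of -0.86 ± 0.11 (adjusted p = 5.5e-07). At 10 wk the WKY libraries of the CVLM had Mobp levels of 589, 723, 752 and 818 CPM, and the SHR libraries 282, 294, 299, 310.4 and 322 CPM, a log2 fold change of -1.26 ± 0.12 (adjusted p = 1.3e-10). The groups were apart at both ages, and at 10 wk the highest SHR library was at 322 CPM against 589 CPM for the lowest WKY library. At 12 wk the WKY libraries of the CVLM had Mobp levels of 657, 657 and 737 CPM, and the SHR libraries 258 at the lowest, 371 at the median and 427 at the highest CPM, a log2 fold change of -0.91 ± 0.12 (adjusted p = 1.2e-06). At 16 wk the WKY libraries of the CVLM had Mobp levels of 582, 618 and 652 CPM, and the SHR libraries 272 at the lowest, 317 at the median and 377 at the highest CPM, a log2 fold change of -0.93 ± 0.12 (adjusted p = 5.9e-07). At 24 wk the WKY libraries of the CVLM had Mobp levels of 526, 591 and 654 CPM, and the SHR libraries 240.1 at the lowest, 284 at the median and 364 at the highest CPM, a log2 fold change of -1.02 ± 0.12 (adjusted p = 8.0e-08). No age showed overlap between the strains. In the RVLM the log2 fold change was -0.60 ± 0.13 (adjusted p = 0.0027) at 8 wk and -1.04 ± 0.14 (adjusted p = 9.6e-07) at 10 wk. With each age fitted on its own the 8 wk value was -0.60 (adjusted p = 0.055), no longer called. It was -1.03 ± 0.14 (adjusted p = 2.6e-06), -1.01 ± 0.14 (adjusted p = 3.7e-06) and -1.0037 ± 0.15 (adjusted p = 4.9e-06) at the 3 later ages. The strains overlapped only at 8 wk, where SHR replicate 2 was at 472 CPM and WKY replicate 3, the library that stood apart, at 469.5 CPM, with the other 4 WKY libraries at 583 CPM or more.

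In the NTS the strain effect on Mobp was called at 10, 16 and 24 wk and not at 8 and 12 wk. At 10 wk WKY libraries had 299, 324, 395 and 439.8 CPM and SHR libraries 165, 189, 199.6, 215 and 267 CPM, a log2 fold change of -0.82 ± 0.19 (adjusted p = 0.0049). At 16 wk WKY had 360.3, 409 and 419 CPM and SHR 147 at the lowest, 185 at the median and 234 at the highest CPM, with -1.06 ± 0.19 (adjusted p = 0.00032). At 24 wk WKY had 329, 355 and 426 CPM and SHR 125 at the lowest, 195 at the median and 293 at the highest CPM, with -0.82 ± 0.19 (adjusted p = 0.0086). The groups were apart at these 3 ages. At 8 wk, with 365, 383, 474, 532 and 579.8 CPM in WKY and 276, 288, 334, 355 and 454 CPM in SHR, the effect was -0.45 ± 0.18 (adjusted p = 0.11). At 12 wk, with 305, 327 and 331 CPM in WKY and 165 at the lowest, 244 at the median and 315 at the highest CPM in SHR, it was -0.44 ± 0.20 (adjusted p = 0.34). At those ages 4 of 5 and 5 of 6 SHR libraries lay below every WKY library. The call at 24 wk was lost when WKY 24 wk replicate 1 was left out (adjusted p = 0.15). It was also lost with each age fitted on its own, -0.82 (adjusted p = 0.13).

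Cldn11, the tight junction gene of myelin, moved the other way. In the NTS it ranged from 17.4 to 75.7 with a median of 34.0 CPM in WKY and from 26.2 to 117 with a median of 56.6 CPM in SHR, with a mean strain effect of 0.79 ± 0.11 (adjusted p = 1.8e-07), a fold of 1.73. At 8 wk WKY libraries had 30.2, 35.0, 48.9, 50.9 and 75.7 CPM and SHR libraries 76.7, 86.1, 102, 107 and 117 CPM, a log2 fold change of 1.02 ± 0.21 (adjusted p = 0.0015). At 10 wk WKY had 17.4, 19.8, 22.5 and 32.9 CPM and SHR 41.3, 50.4, 56.9, 61.9 and 62.9 CPM, with 1.24 ± 0.23 (adjusted p = 0.00033). All SHR libraries lay above all WKY libraries at 8, 10, 12 and 16 wk. At 12 wk, with 29.5, 30.3 and 43.3 CPM in WKY and 45.8 at the lowest, 64.7 at the median and 74.4 at the highest CPM in SHR, the effect was 0.86 ± 0.25 (adjusted p = 0.039). That call was lost when any of 6 rats was left out (adjusted p up to 0.24). These were SHR 12 wk replicates 1, 4, 5 and 6 and WKY 12 wk replicates 2 and 3. Of them only the WKY libraries had high choroid plexus markers. The 12 wk call was also lost with each age fitted on its own, 0.86 (adjusted p = 0.059), and without the low-count filter, 0.87 (adjusted p = 0.054). At 16 wk the strains were apart by less, 35.8 to 38.3 CPM in WKY and 40.8 to 54.3 CPM in SHR, and the effect of 0.31 ± 0.24 (adjusted p = 1) did not pass the test. At 24 wk the SHR libraries ran from 26.2 to 73.5 CPM and overlapped the WKY range of 28.6 to 42.1 CPM, with 0.54 ± 0.24 (adjusted p = 0.31).

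In the CVLM Cldn11 ranged from 32.3 to 70.3 with a median of 51.9 CPM in WKY and from 46.3 to 121 with a median of 71.8 CPM in SHR, with a mean strain effect of 0.52 ± 0.06 (adjusted p = 5.3e-09). At 8 wk WKY libraries had 43.2, 44.7, 56.3, 56.5 and 70.3 CPM and SHR libraries 101, 101, 102, 112 and 121 CPM, a log2 fold change of 0.99 ± 0.12 (adjusted p = 1.0e-07). At 16 wk WKY had 47.5, 50.7 and 53.1 CPM and SHR 66.0 at the lowest, 72.7 at the median and 85.9 at the highest CPM, with 0.54 ± 0.14 (adjusted p = 0.019). The groups did not overlap at either age. The 16 wk call was lost in 4 of the 46 fits that left out 1 rat each (adjusted p up to 0.15). At 10 and 12 wk the SHR libraries again all lay above the WKY libraries, with effects of 0.41 ± 0.13 (adjusted p = 0.082) and 0.46 ± 0.14 (adjusted p = 0.063) that did not pass the test. The 10 wk effect was called with the library number as a term, 0.41 (adjusted p = 0.015), and without the number 2 libraries outside 10 wk, 0.42 (adjusted p = 0.013). The 12 wk effect was called under both, 0.53 (adjusted p = 0.0027) and 0.54 (adjusted p = 0.0032), with DESeq2, 0.48 (adjusted p = 0.028), with library size without the members, 0.48 (adjusted p = 0.049), and in 6 of 46 fits without 1 rat. At 24 wk SHR libraries ran from 46.3 to 72.4 CPM and WKY libraries from 45.7 to 62.9 CPM, with an effect of 0.19 ± 0.14 (adjusted p = 0.43).

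In the RVLM the mean strain effect on Cldn11 was 0.32 ± 0.14 (adjusted p = 0.14), not called. At 8 wk the WKY libraries had 36.9, 44.9, 54.2, 54.6 and 181 CPM, and the SHR libraries 76.0, 87.7, 88.7, 92.2 and 102 CPM. The highest WKY value, that of replicate 3, lay above all 28 SHR libraries of the region, and the other 4 WKY values lay below all SHR values at that age. With replicate 3 left out, the 8 wk effect was 0.89 (adjusted p = 0.0085) and the mean strain effect 0.44 (adjusted p = 0.0014), both called. The astrocyte marker sum of this library was 6574 CPM against at most 6501 CPM in the other 45, and its other marker sums lay within their range. The part of these in the Cldn11 values was not tested. Sox8 in the same library was 35.5 CPM, against 87.6 to 99.2 CPM in the other 4 of its group.

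**Figure D3:**
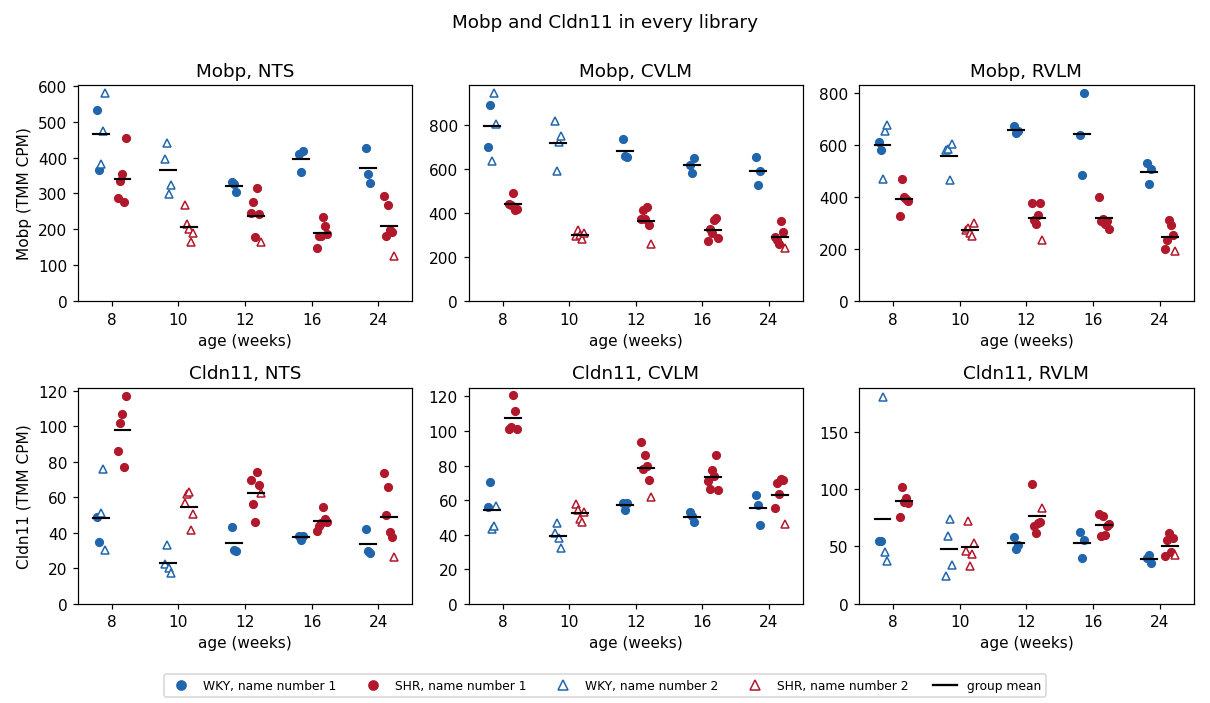
Mobp (upper row) and Cldn11 (lower row) in every library, as TMM CPM on a linear axis from 0, against age in weeks for NTS, CVLM and RVLM. Blue is WKY, red is SHR, open triangles are libraries whose column name ends in 2, and black bars are group means; in the CVLM all 28 SHR libraries lie below all 18 WKY libraries for Mobp.

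The Mobp difference was present among libraries of each column number in all regions, and so was that of Cldn11 except in the RVLM at 10 wk. Among 8 wk libraries with number 1 (5 SHR, 2 WKY), the log2 ratio of mean CPM was -0.39, -0.85 and -0.60 for Mobp in NTS, CVLM and RVLM. For Cldn11 it was 1.22, 0.76 and 0.71. At 10 wk, where all libraries have number 2, the ratios were -0.82, -1.26 and -1.04 for Mobp and 1.24, 0.41 and 0.04 for Cldn11. Without the number 2 libraries outside 10 wk, an alternative added after the data were seen, the mean strain effect of Mobp was -0.66 (adjusted p = 4.4e-08) for NTS, -0.95 (adjusted p = 3.1e-18) for CVLM and -0.92 (adjusted p = 1.9e-15) for RVLM. That of Cldn11 was 0.86 (adjusted p = 7.7e-09), 0.51 (adjusted p = 8.8e-10) and 0.40 (adjusted p = 0.0098). The last of these is a call, and the set left out includes WKY 8 wk replicate 3.

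Cnp, the phosphodiesterase of noncompact myelin, was lower in SHR in both ventrolateral regions. In the CVLM it ranged from 1893 to 2919 with a median of 2315 CPM in WKY and from 1593 to 2599 with a median of 1876 CPM in SHR, with 14 of 28 SHR libraries below every WKY library and a mean strain effect of -0.25 ± 0.04 (adjusted p = 6.5e-07), a fold of 0.841. At 10 wk WKY libraries of the CVLM had 2110.2, 2239, 2379.7 and 2534 CPM and SHR libraries 1656, 1659, 1743, 1833 and 1943 CPM, and the strains did not overlap, with -0.39 ± 0.08 (adjusted p = 0.00090). At 12 wk WKY had 2403, 2437 and 2474 CPM and SHR 1905 at the lowest, 1959.8 at the median and 2037 at the highest CPM, again without overlap, with -0.32 ± 0.08 (adjusted p = 0.021), a call lost in 6 of 46 fits without 1 rat (adjusted p up to 0.094), with each age fitted on its own, -0.29 (adjusted p = 0.14), without the low-count filter, -0.28 (adjusted p = 0.085), and without the number 2 libraries outside 10 wk, -0.30 (adjusted p = 0.080). In the RVLM WKY ranged from 1468 to 2595 with a median of 1900.0 CPM and SHR from 1260.0 to 2217 with a median of 1684 CPM, and the mean effect was -0.20 ± 0.05 (adjusted p = 0.0032). There 3 of 28 SHR libraries lay below every WKY library, so the ranges overlapped widely. In the NTS the mean effect was 0.02 ± 0.07 (adjusted p = 0.94).

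Mog, on the outer face of the sheath, followed a similar course. In the CVLM it ranged from 482 to 796 with a median of 582 CPM in WKY and from 387 to 679.5 with a median of 490.3 CPM in SHR, with 13 of 28 SHR libraries below every WKY library and a mean strain effect of -0.24 ± 0.04 (adjusted p = 5.8e-05). In the RVLM the ranges were 378 to 771 with a median of 498 CPM and 299 to 565 with a median of 419.8 CPM, with -0.23 ± 0.06 (adjusted p = 0.0044). In the NTS the mean effect was 0.04 ± 0.08 (adjusted p = 0.87). By age only the CVLM at 8 wk was called, -0.29 ± 0.09 (adjusted p = 0.040), with 549, 701, 773, 790.0 and 796 CPM in WKY and 529, 533, 591, 619 and 679.5 CPM in SHR. That call rested on few libraries: the strains overlapped, the 2 WKY libraries with number 1 were the lower ones, and it was lost without the number 2 libraries outside 10 wk, at -0.05 (adjusted p = 1), and without the 2 libraries of conflicting age, at -0.22 (adjusted p = 0.21). At 24 wk the CVLM effect of -0.30 ± 0.10 (adjusted p = 0.055) was called with DESeq2, -0.30 (adjusted p = 0.050), with the library number as a term, -0.34 (adjusted p = 0.021), and in 6 of 46 fits without 1 rat.

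The remaining members differed little or not reliably between strains. Mbp, the most abundant of the 9 by share of counts, ranged from 25172 to 43621 with a median of 32641 CPM in WKY and from 23133 to 37578 with a median of 29712 CPM in SHR in the CVLM, and its mean effect of -0.14 ± 0.05 (adjusted p = 0.049) was at the threshold. That call was lost under all 10 alternative settings and in 35 of 46 fits without 1 rat (adjusted p up to 0.25). In the NTS and the RVLM the Mbp effects were 0.11 ± 0.09 (adjusted p = 0.53) and -0.06 ± 0.06 (adjusted p = 0.60). Mag, on the axonal side, gave 0.20 ± 0.09 (adjusted p = 0.17), -0.03 ± 0.06 (adjusted p = 0.83) and 0.01 ± 0.07 (adjusted p = 0.97) in NTS, CVLM and RVLM. Ugt8 gave 0.11 ± 0.09 (adjusted p = 0.56), -0.13 ± 0.07 (adjusted p = 0.23) and -0.09 ± 0.09 (adjusted p = 0.61). For these 2 genes the SHR and WKY ranges overlapped in all regions.

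Of the transcription factors, Sox8 was called at 24 wk in the CVLM, where WKY libraries had 59.0, 63.7 and 71.5 CPM and SHR libraries 77.2 at the lowest, 87.6 at the median and 99.1 at the highest CPM, a log2 fold change of 0.43 ± 0.12 (adjusted p = 0.022). The strains did not overlap there. At 8 wk in the same region the order was the other way, with 94.2, 97.4, 107, 112 and 116 CPM in WKY and 65.2, 88.8, 96.1, 96.4 and 102 CPM in SHR and an effect of -0.23 ± 0.11 (adjusted p = 0.18). The 24 wk call was lost without SHR 24 wk replicate 6 or WKY 24 wk replicates 2 or 3 (adjusted p up to 0.16) with each age fitted on its own, 0.48 (adjusted p = 0.060), without the number 2 libraries outside 10 wk, 0.41 (adjusted p = 0.061), and with a replicate block. Mean strain effects of Sox8 were 0.09 ± 0.06 (adjusted p = 0.41), -0.10 ± 0.05 (adjusted p = 0.22) and -0.01 ± 0.08 (adjusted p = 0.95). For Sox10 at 24 wk in the NTS, WKY libraries had 24.5, 25.0 and 44.8 CPM and SHR libraries 55.9 at the lowest, 64.9 at the median and 70.4 at the highest CPM, with no overlap and an effect of 1.01 ± 0.29 (adjusted p = 0.051), just short of the threshold. It passed with DESeq2, 1.01 (adjusted p = 0.011), with edgeR's filterByExpr in place of the low-count filter, 1.02 (adjusted p = 0.042), with each age fitted on its own, 1.01 (adjusted p = 0.014), with library size without the members, 1.01 (adjusted p = 0.043), and in 13 of 46 fits without 1 rat. Leaving out WKY 24 wk replicate 2 made it 1.35 (adjusted p = 0.011). The effect did not pass on library totals, without the low-count filter or with the library number as a term. Nor did it pass with a replicate block or without the number 2 libraries outside 10 wk. The 24 wk effects of Sox10 in CVLM and RVLM were 0.44 ± 0.25 (adjusted p = 0.29) and 0.82 ± 0.30 (adjusted p = 0.18), and the mean strain effects in NTS, CVLM and RVLM 0.31 ± 0.12 (adjusted p = 0.098), -0.10 ± 0.11 (adjusted p = 0.64) and 0.08 ± 0.12 (adjusted p = 0.78).

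A test of the difference itself asked whether the mean strain effect differed between regions. In edgeR's fit 0 of 9 members were called for NTS against CVLM, NTS against RVLM or CVLM against RVLM, beside 0.449%, 1.82% and 0.32% of the 14043 genes tested. DESeq2 and limma-voom also called 0. At an unadjusted p under 0.05 there were 7, 6 and 0 members. For both contrasts with the NTS all 9 differences were positive, with medians of 0.25 and 0.20 on the log2 scale beside 0.01 and 0.01 for all genes, so the SHR minus WKY value of each gene exceeded, in the NTS, that of the other regions without passing the test. Against the CVLM the largest value was that of Sox10, 0.41 ± 0.13 (adjusted p = 0.21), and the smallest p that of Cnp, 0.25 ± 0.07 (adjusted p = 0.11). Against the RVLM the largest was that of Cldn11, 0.43 ± 0.14 (adjusted p = 0.097), which became a call at 0.44 (adjusted p = 0.022) without the number 2 libraries outside 10 wk.

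Ages were compared as 24 wk minus 8 wk within a strain. In SHR 4 of 9 members were called in the NTS (Mog, Cnp, Ugt8 and Cldn11), 5 in the CVLM (these 4 and Mobp) and 2 in the RVLM (Mobp and Cnp), all lower at 24 wk, beside 0.232%, 0.649% and 0.358% of all genes. In WKY 1 was called in the NTS (Ugt8), 7 in the CVLM (all but Mag and Cldn11) and 1 in the RVLM (Ugt8), all lower at 24 wk, beside 0.464%, 13.7% and 0.179% of all genes. The members' median log2 change from 8 to 24 wk was -0.62, -0.44 and -0.45 in SHR and -0.37, -0.43 and -0.27 in WKY for NTS, CVLM and RVLM. The median over all genes ran from -0.03 to 0.03 in these 6 comparisons. In WKY, 3 of the 5 libraries at 8 wk have number 2 and all 3 at 24 wk have number 1, so these counts are given again without the number 2 libraries outside 10 wk: 0, 2 and 0 in WKY and 2, 5 and 4 in SHR. The comparison is between different rats of 2 ages.

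Ugt8, which makes galactosylceramide, had the largest called fall with age in NTS and CVLM in both strains. In the CVLM SHR libraries had 751, 825, 899.8, 901 and 1014 CPM at 8 wk and 377 at the lowest, 452 at the median and 541 at the highest CPM at 24 wk, a log2 change of -0.95 ± 0.13 (adjusted p = 1.2e-05). WKY libraries had 836, 955, 1170.5, 1243 and 1264 CPM at 8 wk and 371, 462 and 477 CPM at 24 wk, a change of -1.32 ± 0.17 (adjusted p = 4.6e-06). The 8 and 24 wk libraries did not overlap in either strain. In the NTS SHR libraries had 521, 648, 693, 694 and 707 CPM at 8 wk and 221 at the lowest, 308 at the median and 419 at the highest CPM at 24 wk, with -1.09 ± 0.18 (adjusted p = 0.0012). WKY libraries had 344, 468, 625, 745 and 874 CPM and 222, 314 and 325 CPM, with -1.09 ± 0.22 (adjusted p = 0.028). The WKY libraries at 8 wk spread more than those of SHR, and the 2 with number 1 were the lowest. That call was lost without WKY 8 wk replicate 4 or 5 or WKY 24 wk replicate 1 or 3 (adjusted p up to 0.15). Without the number 2 libraries the WKY change in the NTS was -0.50 (adjusted p = 0.69). In the RVLM the changes were -0.63 ± 0.17 (adjusted p = 0.13) in SHR, not called, and -0.97 ± 0.21 (adjusted p = 0.041) in WKY, and without the number 2 libraries -0.74 (adjusted p = 0.0017) and -0.62 (adjusted p = 0.36).

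At the ages between, mean Ugt8 levels in the CVLM of SHR were 878 ± 98.0, 711 ± 96.4, 581 ± 99.5, 449 ± 36.4 and 456 ± 53.4 CPM (SD) in order of age, and in WKY 1094 ± 189, 787 ± 77.5, 609 ± 177, 511 ± 123 and 437 ± 57.4 CPM. In the NTS the SHR means were 653 ± 76.7, 495 ± 57.7, 420.3 ± 123, 260.2 ± 30.4 and 308 ± 67.0 CPM, and the WKY means 611 ± 212, 546 ± 106, 276 ± 9.57, 278 ± 29.8 and 287 ± 56.5 CPM. The means at 8 and 10 wk were above those at 16 and 24 wk in both strains and regions, and the means at 16 and 24 wk differed by less than the larger of their SDs.

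**Figure D4:**
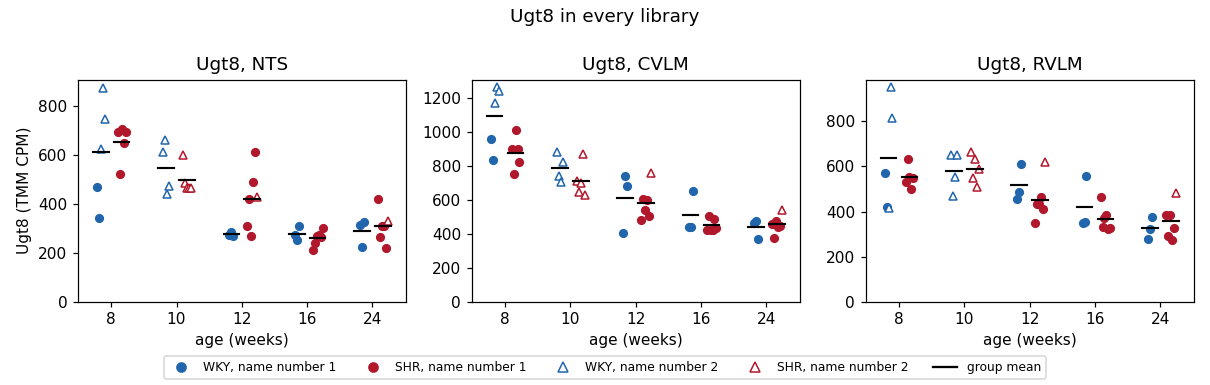
Ugt8 in every library, as TMM CPM on a linear axis from 0, against age in weeks for NTS, CVLM and RVLM. Blue is WKY, red is SHR, open triangles are libraries whose column name ends in 2, and black bars are group means; in NTS and CVLM every 24 wk library lies below every 8 wk library of its strain.

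Of the sheath genes, Cnp fell in all regions of SHR, with log2 changes of -0.62 ± 0.14 (adjusted p = 0.034) for NTS, -0.44 ± 0.07 (adjusted p = 0.00024) for CVLM and -0.47 ± 0.09 (adjusted p = 0.0077) for RVLM. In WKY its changes were -0.26 ± 0.17 (adjusted p = 0.38), -0.41 ± 0.09 (adjusted p = 0.0028) and -0.24 ± 0.11 (adjusted p = 0.24). Mobp changed by -0.59 ± 0.11 (adjusted p = 0.0014) in the CVLM and -0.67 ± 0.13 (adjusted p = 0.0043) in the RVLM of SHR, and by -0.43 ± 0.13 (adjusted p = 0.028) in the CVLM of WKY. Mog changed by -0.72 ± 0.16 (adjusted p = 0.034) in the NTS and -0.47 ± 0.09 (adjusted p = 0.0015) in the CVLM of SHR, and by -0.46 ± 0.11 (adjusted p = 0.0051) in the CVLM of WKY. The NTS calls of Mog and Cnp in SHR were each lost in 8 of 46 fits without 1 rat, and that of Cnp in 6 of 8 alternative settings, among them library totals without TMM. Mag was called in neither strain in any region, with changes of -0.58, -0.41 and -0.40 in SHR and -0.16, -0.24 and -0.03 in WKY. Mbp was called in the CVLM of WKY, -0.40 ± 0.12 (adjusted p = 0.024), and in SHR gave -0.29 ± 0.10 (adjusted p = 0.22) there. Leaving out the 2 CVLM libraries of conflicting age made the WKY value -0.37 (adjusted p = 0.056) for Mbp and -0.43 (adjusted p = 0.055) for Mobp.

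Cldn11 fell with age in SHR, with log2 changes of -0.9995 ± 0.20 (adjusted p = 0.011) in the NTS and -0.77 ± 0.12 (adjusted p = 6.2e-05) in the CVLM, where WKY gave -0.52 ± 0.25 (adjusted p = 0.21) and 0.03 ± 0.14 (adjusted p = 0.91). The NTS call was lost without SHR 8 wk replicate 5 or SHR 24 wk replicate 5 (adjusted p up to 0.064). In the RVLM of SHR the change was -0.82 ± 0.26 (adjusted p = 0.31), and -0.82 (adjusted p = 0.032) without WKY 8 wk replicate 3. In the CVLM the change of the strain effect from 8 to 24 wk, a test of the difference itself, was -0.80 ± 0.18 (adjusted p = 0.042) for Cldn11, as the strains were 0.99 apart at 8 wk and 0.19 apart at 24 wk. For Sox8 the same test gave 0.67 ± 0.16 (adjusted p = 0.045), where the WKY change with age was -0.70 ± 0.13 (adjusted p = 0.00083) and the SHR change -0.04 ± 0.10 (adjusted p = 0.95). Sox10 also fell in the CVLM of WKY, -0.89 ± 0.26 (adjusted p = 0.021), against 0.17 ± 0.21 (adjusted p = 0.89) in SHR. That call was lost with the library number as a term, -0.70 (adjusted p = 0.18), without the number 2 libraries outside 10 wk, -0.60 (adjusted p = 0.39), and without WKY 8 wk replicates 4 or 5 or any WKY library at 24 wk (adjusted p up to 0.10). Its difference between the strains was 1.06 ± 0.33 (adjusted p = 0.068). For this test 2 of 9 members were called in the CVLM beside 2.01% of all genes, and 0 and 0 in NTS and RVLM beside 0% and 0.00746%, where 1 and 1 had an unadjusted p under 0.05. Without the number 2 libraries outside 10 wk neither CVLM call held: Cldn11 was -0.51 (adjusted p = 0.65) and Sox8 0.61 (adjusted p = 0.65). Both were also lost without WKY 8 wk replicate 3, at -0.75 (adjusted p = 0.062) and 0.67 (adjusted p = 0.062). The joint test of the strain effect over all 5 ages, with 4 degrees of freedom, called 0 of 9 members in edgeR's fit in each region, beside 0.0145%, 0.0224% and 0.00746% of all genes, and DESeq2 also called 0. At an unadjusted p under 0.05 it found 2, 4 and 1 members in NTS, CVLM and RVLM.

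Within groups, the sheath genes varied together between rats. After each library's log2 level was set against the mean of its strain and age group, Mbp and Cnp had r = 0.94 (rho 0.95, 0.94 without the 2 farthest libraries) over the 46 libraries of the NTS, r = 0.70 (rho 0.65, 0.68 without the 2 farthest libraries) in the CVLM and r = 0.83 (rho 0.78, 0.81 without the 2 farthest libraries) in the RVLM. These points share library, depth and punch, and the values are descriptions. Among Mbp, Mog, Mag, Mobp and Cnp the 10 pairs ran from r = 0.55 to 0.94 (NTS), -0.09 to 0.72 (CVLM) and -0.14 to 0.83 (RVLM). Mag and Mobp had r = 0.82 (rho 0.76, 0.75 without the 2 farthest libraries) in the NTS and r = 0.72 (rho 0.66, 0.66 without the 2 farthest libraries) in the CVLM. Cldn11 followed Mobp in the NTS with r = 0.64 (rho 0.66, 0.52 without the 2 farthest libraries) although its strain effect had the opposite sign, while in the RVLM the pair had r = -0.08 (rho 0.17, -0.11 without the 2 farthest libraries). Ugt8 with Mobp gave r = 0.45 (rho 0.48, 0.47 without the 2 farthest libraries) in the NTS and r = -0.15 (rho -0.05, -0.01 without the 2 farthest libraries) in the CVLM. The spread of the sheath genes within groups was wider in the NTS, with an SD of 0.26 on the log2 scale for Mbp against 0.15 in the CVLM and 0.16 in the RVLM.

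Sox10 varied apart from the other members. Its r with the other 8 members ran from -0.08 to 0.22 (NTS), -0.12 to 0.50 (CVLM) and -0.36 to 0.36 (RVLM). With Mbp it had r = 0.03 (rho 0.07, 0.04 without the 2 farthest libraries) for NTS, r = 0.19 (rho 0.20, 0.10 without the 2 farthest libraries) for CVLM and r = -0.09 (rho -0.12, -0.16 without the 2 farthest libraries) for RVLM. The SD of Sox10 within groups was 0.37, 0.33 and 0.39, the widest of the 9 genes in each region. Its deviations lay closer to the first principal component of all genes' deviations, with r = 0.78, 0.70 and 0.78 in NTS, CVLM and RVLM, a component that holds 30.8, 32.7 and 26.4% of the variance and whose sign is arbitrary. The other 8 members had r between -0.43 and 0.26 with it.

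**Figure D5:**
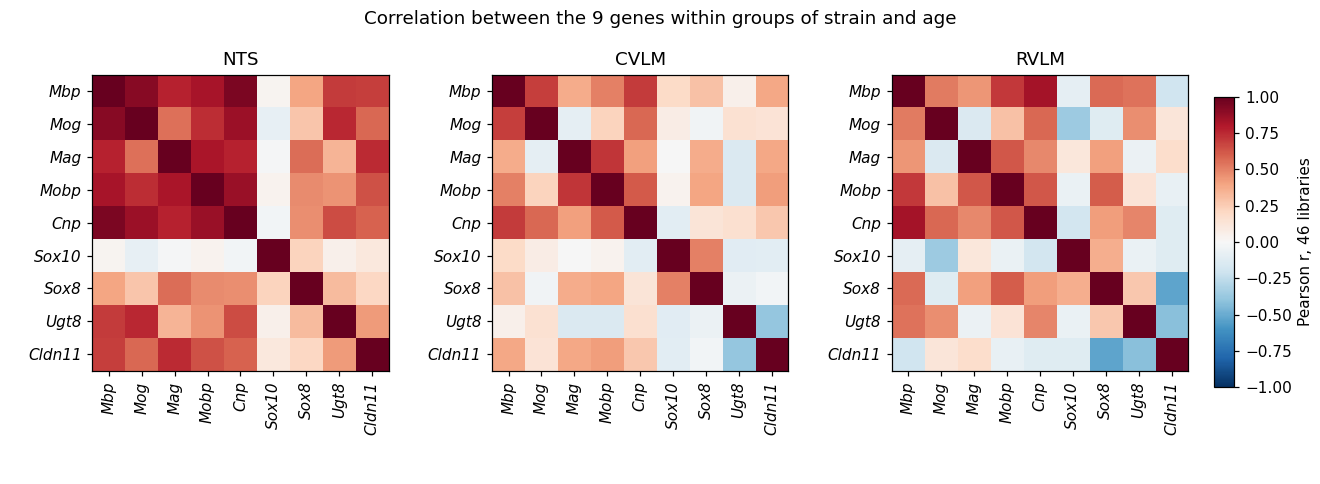
Pearson's r between each pair of the 9 genes over the 46 libraries of NTS, CVLM and RVLM, computed on log2 levels minus the mean of each strain and age group, on a color scale from -1 (blue) to 1 (red). In the NTS all pairs among Mbp, Mog, Mag, Mobp and Cnp are red (0.55 to 0.94), and the pairs of Sox10 are paler (-0.08 to 0.22).

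Ranked by likeness to the mean deviation of the 9 members, among 13107 genes tested in all 3 regions and with the members left out, the 8 highest genes were Gsn (gelsolin, which severs actin filaments) at a mean r of 0.80, Litaf (a regulator of endosomal sorting) at a mean r of 0.78, Tf (transferrin, the iron carrier that oligodendrocytes make) at a mean r of 0.76, Cers2 (the ceramide synthase of very long chain sphingolipids) at a mean r of 0.75, Gjb1 (connexin 32) at a mean r of 0.74, Plekhb1 (evectin-1) at a mean r of 0.74, Tmem125 at a mean r of 0.73 and Mal (a proteolipid of myelin rafts) at a mean r of 0.72. The measure is the mean over the regions of r across 46 libraries. Each r was larger for NTS than for CVLM, for example 0.92 against 0.73 for Tf and 0.89 against 0.74 for Cers2. Of the 8, 4 stand in the lists of oligodendrocyte genes used here (Cers2, Gjb1, Plekhb1 and Mal).

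Among the other oligodendrocyte genes, the strain effects were again unequal. The counts here stand beside 11.2%, 12.3% and 10.8% of all genes called in either direction in NTS, CVLM and RVLM, and several are near those shares. Of 20 genes of myelin sheath proteins, 6 were higher and 0 lower in SHR in the NTS, 1 higher and 3 lower in the CVLM, and 2 higher and 3 lower in the RVLM. Of 18 genes of myelin lipid synthesis and metabolism, 0 were higher and 3 lower in the NTS, 0 and 5 in the CVLM, and 0 and 4 in the RVLM. Of 11 oligodendrocyte transcription factors 0 were called in any region, and of 10 genes of precursors 1 was higher in the NTS, 1 higher and 1 lower in the CVLM, and 1 higher in the RVLM. The median effects of the sheath list were 0.17, -0.06 and -0.02 in NTS, CVLM and RVLM, and those of the lipid list 0.01, -0.09 and -0.10, beside the medians over all genes given above. Of the markers of other cells, 0 of 8 astrocyte markers were called for the mean strain effect in NTS and CVLM and 1 was higher in the RVLM, and 0 of 10 neuronal markers were called in any region. Of 8 microglial markers 1, 2 and 1 were lower in SHR in NTS, CVLM and RVLM. Of 5 Schwann cell markers tested, 1 was higher and 1 lower in NTS and CVLM and 1 lower in the RVLM. Of 6 endothelial markers 1 was higher in the NTS and 0 were called elsewhere. In the NTS 3 of 5 choroid plexus and 2 of 6 ependymal markers were lower in SHR, and in the CVLM 1 of 2 choroid plexus markers was higher. In the RVLM 1 of 3 ependymal markers was lower and 1 of 6 leptomeningeal markers higher. Their part in the members' differences was not tested.

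Enpp6, a choline phosphodiesterase of newly formed oligodendrocytes, was lower in SHR in all regions. In the CVLM it had 59.4 ± 13.1 CPM in WKY (SD, n = 18) and 37.6 ± 9.82 CPM in SHR (n = 28), with -0.62 ± 0.06 (adjusted p = 7.6e-11). In the NTS and RVLM its effects were -0.38 ± 0.08 (adjusted p = 0.00067) and -0.50 ± 0.08 (adjusted p = 6.9e-06). Cers2, which also stood among the genes most like the members, was lower, with -0.26 ± 0.06 (adjusted p = 0.0027) for NTS, -0.48 ± 0.04 (adjusted p = 6.3e-13) for CVLM and -0.46 ± 0.06 (adjusted p = 4.1e-07) for RVLM, and 198 ± 29.3 CPM in WKY and 137 ± 14.9 CPM in SHR in the CVLM. Gjb1 was lower in the CVLM, -0.26 ± 0.06 (adjusted p = 0.00065), and in the RVLM, -0.23 ± 0.06 (adjusted p = 0.0036), and gave 0.05 ± 0.08 (adjusted p = 0.82) in the NTS. Sqle, an enzyme of cholesterol synthesis, was lower in all regions, with -0.16 ± 0.04 (adjusted p = 0.0032) for NTS, -0.23 ± 0.04 (adjusted p = 1.1e-05) for CVLM and -0.21 ± 0.04 (adjusted p = 0.00043) for RVLM. Tspan2, a tetraspanin of the sheath, was higher in all regions, with 0.34 ± 0.08 (adjusted p = 0.0033), 0.41 ± 0.07 (adjusted p = 2.4e-05) and 0.29 ± 0.09 (adjusted p = 0.042). Higher in the NTS were also Mal, 0.35 ± 0.08 (adjusted p = 0.00077), and Opalin, a transmembrane protein of the paranodal loops, 0.34 ± 0.08 (adjusted p = 0.0040). Ptprz1, a receptor phosphatase of precursors and astrocytes, was higher in all regions, with 0.32 ± 0.07 (adjusted p = 0.00089), 0.41 ± 0.07 (adjusted p = 6.7e-06) and 0.36 ± 0.07 (adjusted p = 0.00037). Bcas1 was higher in the NTS, 0.26 ± 0.09 (adjusted p = 0.042), and in the RVLM, 0.13 ± 0.05 (adjusted p = 0.049), both near the threshold, and gave 0.09 ± 0.04 (adjusted p = 0.23) in the CVLM.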

How the data were processed

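Per the methods, reads were aligned to rn6 with STAR inside RSEM, and the authors deposited RSEM expected counts per gene for each region, not normalized. The methods also name a batch correction with ComBat_seq, and whether the deposited values carry it is not stated. Expected counts were rounded to whole numbers here. Genes whose highest rlog value in a region was at least 3.5 were kept (13793 in NTS, 13408 in CVLM and 13411 in RVLM). Each region was fitted with edgeR 4.0.16 in R 4.3.3 (TMM, quasi-likelihood F test, 10 groups, 46 libraries, 36 residual degrees of freedom), and regions were compared in 1 fit with the rat as a block. Multiple testing was adjusted by Benjamini-Hochberg per region and contrast. CPM used TMM library sizes, and 1 CPM was added before log2 for correlations.

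The members and gene lists were chosen with earlier results of these data known. All 9 members are named. Of the other oligodendrocyte lists, up to 3 genes with the highest and 3 with the lowest mean strain effect among those called are named per region, and by likeness the 8 highest. Alternatives were DESeq2 1.42.0, limma-voom (limma 3.58.1, region fit), library totals, other filters, each age alone, a stricter call, the library number as a term, a replicate block, library size without the members, leaving out the libraries of conflicting age, leaving out each rat and, added after the data were seen, leaving out the number 2 libraries outside 10 wk. The fits were also run on simulated counts with known changes, the region fit on a part of the genes. Those counts had a fixed dispersion and no variation shared between libraries, so they cannot show how the fits handle such variation. Within groups, 270 pairs of libraries differed beyond counting noise (lowest chi-square per gene 5.07), so none was counted as a repeat. The promoter of Mbp was not used here.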

Additional observations from a re-analysis of the deposited data

Results flagged for a closer look

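Each of the 9 genes was checked in each group of 4 to 6 libraries for a value far from the rest of its group (Dixon's gap test at the 95% level). Of these 189 tests 13 found one, where chance gives about 1 in 20. Groups of 3 were not checked. In the NTS of SHR at 10 wk, replicate 1 was high for 4 genes: Mbp at 22856 CPM (others 14363 to 16559), Mog at 571 CPM (others 320.5 to 348), Cnp at 1739.8 CPM (others 1215 to 1276) and Ugt8 at 597 CPM (others 463 to 486). In the RVLM of WKY at 8 wk, replicate 3 had Sox8 at 35.5 CPM (others 87.6 to 99.2) and Cldn11 at 181 CPM (others 36.9 to 54.6). In the RVLM of WKY at 10 wk, replicate 3 was low for Mobp at 467 CPM (others 583 to 604) and Sox8 at 70.6 CPM (others 89.9 to 92.7).

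Sox8 was high in the NTS of WKY at 10 wk in replicate 2, at 102 CPM (others 79.4 to 83.1), and in the RVLM of SHR at 10 wk in replicate 5, at 104 CPM (others 76.8 to 79.7). Sox10 was high in the CVLM of SHR at 12 wk in replicate 3, at 101 CPM (others 74.8 to 82.9), and at 16 wk in replicate 4, at 107 CPM (others 74.7 to 83.7). Mobp was high in the RVLM of SHR at 16 wk in replicate 1, at 402 CPM (others 277 to 316). Of the 13, only Sox8 and Cldn11 of the WKY 8 wk library of the RVLM lay outside the range of the same gene in all other libraries of the region.

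The strain effect differed between 8 and 24 wk in the CVLM for Cldn11, by -0.80 on the log2 scale (adjusted p = 0.042), and for Sox8, by 0.67 (adjusted p = 0.045), in edgeR's test of the difference. Neither call held without the number 2 libraries outside 10 wk, as given above.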

How the results depend on the processing

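No called member result changed direction under the alternatives run. Leaving out each rat in turn, the strain calls at each age numbered 5 to 7 (NTS), 9 to 13 (CVLM) and 5 to 7 (RVLM), those of the mean strain effect 2 to 3, 4 to 5 and 3 to 4, and those of SHR at 24 against 8 wk in the CVLM 5 to 6. The age counts moved more. In SHR they ran 1 to 7 in the NTS (1 without SHR 8 wk replicate 5 or SHR 24 wk replicate 5, 7 without SHR 24 wk replicate 1, and 2 without SHR 8 wk replicates 1, 2 or 3 or SHR 24 wk replicates 2, 4 or 6) and 2 to 4 in the RVLM (4 without WKY 8 wk replicate 4). In WKY they ran 0 to 2 in the NTS (0 without WKY 8 wk replicates 4 or 5 or WKY 24 wk replicates 1 or 3), 3 to 7 in the CVLM (4 without WKY 8 wk replicates 4 or 5 or WKY 24 wk replicate 2, 3 without WKY 24 wk replicate 3) and 0 to 2 in the RVLM (0 without the same 4 libraries as in the NTS).

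A stricter call required an adjusted p of at most 0.01 and a 2-fold change. Of the strain calls at each age, the RVLM then kept 4, the NTS 3 and the CVLM 2. For NTS, CVLM and RVLM, this stricter call left 0, 0 and 0 for the mean strain effect and 1, 0 and 0 for SHR with age. It left 0, 1 and 0 for WKY with age, and 0 between regions. Of SHR with age, the NTS had 2 without the low-count filter and 2 without the number 2 libraries outside 10 wk. The RVLM had 4 with DESeq2, 1 on library totals, 4 with the library number as a term and 4 without those libraries. Of WKY with age, the NTS had 2 with DESeq2 and 0 without the filter, with the number term and without those libraries. The CVLM had 4 with the number term and 2 without those libraries. The RVLM had 3 with DESeq2 and 0 on totals, without the filter, with the number term and without those libraries. The strain effect between regions had 1 call (Cldn11) without those libraries. TMM scaling against library totals moved all log2 differences by -0.13 for the RVLM strain effect at 8 wk and -0.11 for the RVLM of WKY with age. On totals the share of all genes' mean strain calls that were higher in SHR in the CVLM was 56.6%, against 43% with TMM, 51.4% without the low-count filter and 51.5% under the stricter call. With DESeq2, changes with age were called that the edgeR fit did not call, for Mobp in the NTS of SHR at -0.69 (adjusted p = 0.026), Sox10 in WKY at -1.15 (adjusted p = 0.0086) in the NTS and -1.08 (adjusted p = 0.025) in the RVLM, Mag in the CVLM of SHR at -0.42 (adjusted p = 0.042), Ugt8 in the RVLM of SHR at -0.64 (adjusted p = 0.046), and Mog in the RVLM at -0.46 (adjusted p = 0.028) in SHR and -0.49 (adjusted p = 0.033) in WKY. On totals Mag in the RVLM at 8 wk was called at 0.50 (adjusted p = 0.042) and the mean effect of Cldn11 there at 0.37 (adjusted p = 0.047), and Cnp in the RVLM of SHR was lost at -0.43 (adjusted p = 0.062). Of the causes of these changes none was tested.

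Rats of both strains share replicate numbers. Of 54 pairs of WKY and SHR libraries with the same replicate number, 33 had a correlation of deviations over 0.1. Over all these pairs it ran from -0.41 to 0.61. Pairs with different numbers were not compared, so whether the numbers mark a pairing was not tested. The fits behind the calls given above did not use them as a pairing, and a replicate block was run as an alternative. With a replicate block, Mag in the NTS gained a mean strain effect of 0.24 (adjusted p = 0.015), and at 8 wk Mobp in the NTS was called at -0.45 (adjusted p = 0.039), Mag in the NTS at 0.42 (adjusted p = 0.032) and Sox10 in the CVLM at -0.71 (adjusted p = 0.0027). Lost were Cldn11 in the NTS at 12 wk at 0.74 (adjusted p = 0.23) and in the CVLM at 16 wk at 0.50 (adjusted p = 0.17), Mobp in the NTS at 24 wk at -0.60 (adjusted p = 0.077), Cnp in the CVLM at 12 wk at -0.32 (adjusted p = 0.20), Sox8 in the CVLM at 24 wk at 0.39 (adjusted p = 0.12), and the mean effects of Mog in the RVLM at -0.21 (adjusted p = 0.073) and Mbp in the CVLM at -0.13 (adjusted p = 0.21). The age contrasts within a strain were not run with the block. The WKY groups at 12, 16 and 24 wk hold 3 rats each, and what depth limits was not tested.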
